A study of Mus musculus with 6 samples.

Results

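Cardiac sarcomere genes encode the contractile proteins of heart muscle. They were followed here in cells that had been sorted from the mouse aorta by embryonic lineage. The 10 genes are 4 myosin light chains (*Myl2*, *Myl3*, *Myl4* and *Myl7*), 2 myosin heavy chains (*Myh6* and *Myh7*) and 4 proteins of the thin filament (*Tnnt2*, *Tnni3*, *Tnnc1* and *Actc1*), found by symbol among the 24421 rows of the deposited matrix. All 10 symbols were found. They were chosen by gene name with the TPM of these libraries, SHF and CNC, already known, so the levels and the differences between lineages of these 10 genes are given as descriptions, without a test.

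All 6 libraries are marked WT, for wild type, in the matrix. They came from mice of the 129S6/SvEv background at 8 weeks of age, and every mouse carried the conditional CAG-Sun1/sfGFP tracer, a green fluorescent protein that is switched on by Cre recombinase. A Mef2cSHF allele provided Cre in the secondary heart field (SHF) group, and a Wnt1-Cre2 allele provided it in the cardiac neural crest (CNC) group. Each lineage had 3 libraries, which the study calls biological replicates. How many mice were behind each is not given in the sources used here. Living GFP+ cells were sorted from the digested aortic root and ascending aorta, and the RNA was amplified by the SmartSeq2 protocol before sequencing. Cre marks a cell by its ancestry and not by its type, so each sort can hold several cell types. Levels are in TPM, a transcript abundance scaled by transcript length and by the library total, so that genes can be compared with each other. In bulk samples, fewer cells of a type and less RNA per cell cannot be told apart.

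The sarcomere is the repeating contractile unit of striated muscle. Myosin heavy chains, each with an essential and a regulatory light chain, pull on thin filaments of actin, tropomyosin and troponin, and calcium binding to troponin C permits contraction. Smooth muscle cells of the aorta use other genes for the same tasks (*Acta2*, *Myh11*, *Myl6* and *Myl9*, among others) and have no troponin-based switch. The secondary heart field gives rise to myocardium of the outflow tract and right ventricle and to smooth muscle of the aortic root, and the cardiac neural crest to smooth muscle of the ascending aorta and arch and to cells of the outflow septum. Transcription of cardiac contractile genes is known to use promoters with CArG boxes, bound by serum response factor, MCAT elements, bound by TEAD factors, and GATA sites.

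The promoter windows of 5 members are shown because these genes span the patterns in the data. *Myl3*, *Actc1* and *Myh6* were listed at 0 in every CNC library and were above 5 TPM in at least 2 SHF libraries, *Myl7* was listed at 0 in every library, and *Myl4* was above 0 in every library. Each window holds the 250 bases before the gene's start in RefSeq on GRCm38.p6, written 5′ to 3′ on the gene's strand. Capitals mark matches on either strand to the CArG box, the MCAT letters CATTCC and the GATA letters GATAA. *Myl3* lies at chr9:110763428-110763677 on the plus strand, *Actc1* at chr2:114052876-114053125 on the minus strand, *Myh6* at chr14:54966608-54966857 on the minus strand, *Myl7* at chr11:5898783-5899032 on the minus strand and *Myl4* at chr11:104550413-104550662 on the plus strand.
Myl3: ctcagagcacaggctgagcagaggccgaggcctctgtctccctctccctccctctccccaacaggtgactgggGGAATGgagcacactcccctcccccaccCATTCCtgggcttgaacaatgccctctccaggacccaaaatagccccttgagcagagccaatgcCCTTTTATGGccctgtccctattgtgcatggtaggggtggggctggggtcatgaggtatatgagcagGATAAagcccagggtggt
Actc1: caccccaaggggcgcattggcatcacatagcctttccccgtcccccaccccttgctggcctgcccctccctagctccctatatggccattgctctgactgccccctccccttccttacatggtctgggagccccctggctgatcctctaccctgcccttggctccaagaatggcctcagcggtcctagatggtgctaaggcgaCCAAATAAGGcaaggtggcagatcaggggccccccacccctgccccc
Myh6: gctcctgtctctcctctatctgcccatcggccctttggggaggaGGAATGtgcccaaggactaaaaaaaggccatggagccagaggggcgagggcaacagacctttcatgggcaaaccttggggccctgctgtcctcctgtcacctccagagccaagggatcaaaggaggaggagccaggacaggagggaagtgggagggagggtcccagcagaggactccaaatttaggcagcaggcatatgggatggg
Myl7: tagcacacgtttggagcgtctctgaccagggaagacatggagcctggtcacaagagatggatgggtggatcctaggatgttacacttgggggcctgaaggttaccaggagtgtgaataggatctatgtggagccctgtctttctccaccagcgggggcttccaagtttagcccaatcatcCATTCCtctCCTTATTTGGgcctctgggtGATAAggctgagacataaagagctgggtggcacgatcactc
Myl4: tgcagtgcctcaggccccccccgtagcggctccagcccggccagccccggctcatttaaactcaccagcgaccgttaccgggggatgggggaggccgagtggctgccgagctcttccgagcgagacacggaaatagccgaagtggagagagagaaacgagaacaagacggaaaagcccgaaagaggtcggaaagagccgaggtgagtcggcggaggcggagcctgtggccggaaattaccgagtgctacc

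*Myl3* held 1 CArG box, which ends 75 bases before the start, with 2 MCAT matches and 1 GATA match. *Actc1* held 1 CArG box, ending 37 bases before the start. *Myh6* held 1 MCAT match, 200 bases before the start. *Myl7* held all 3 kinds, a CArG box ending 51 bases, a GATA match ending 36 bases and an MCAT match ending 64 bases before the start, although it was listed at 0 in all 6 libraries. *Myl4* held none of them. Its window and that of *Actc1* were each 63.6% G and C, against a median of 52.4% over the 32851 windows of all genes. Matches did not overlap each other in these windows.

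All 10 members had a window in the table, 13 windows in all. Among the members, CArG boxes were found for 3 genes (*Actc1*, *Myl3* and *Myl7*), MCAT for 6, GATA for 4 and the letters TATAAA for 1, and the MEF2 motif for 0. Counted by window the numbers were the same, 3, 6, 4, 1 and 0 of the 13 member windows. In all windows the shares were 1.47% for CArG, 12.64% for MCAT, 22.58% for GATA, 12.37% for TATAAA and 2.92% for MEF2. A match in this window is only a match of letters. The starts in RefSeq and in GENCODE M21 were not the same for every gene. The printed windows of *Myl3*, *Actc1* and *Myh6* lie inside the genes as GENCODE M21 draws them, those of *Myl7* and *Myl4* end where GENCODE starts the gene, and the 2 windows of *Myl2* lie upstream of its GENCODE start.

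The essential light chain *Myl3*, which adult ventricles and slow skeletal muscle use, had 44.9, 6.54 and 34.9 TPM in SHF replicates 1, 2 and 3 and a value of 0 in each CNC library. It was the only member whose libraries did not overlap between the lineages, 1 of the 4 members (*Myl3*, *Myl4*, *Tnnc1* and *Tnnt2*) that passed the filter on low values, and 0 members had every CNC library above every SHF library. The filter asks for 1 TPM in 3 or more libraries and left 10185 genes, of which 6.11% had every SHF library above every CNC library and 5.68% the opposite. With no filter, *Myl3* was 1 of 8 members above 0 in some library, against 4.79% of the 14179 rows of that kind. On this base, without SHF replicate 2, 5 of 8 members (*Myl3*, *Myh6*, *Myh7*, *Tnnc1* and *Actc1*) were higher in SHF without overlap, against 10.3% of rows. Without SHF replicate 1 it was 2 of 8, *Myl3* and *Tnnt2*, against 10.2% of rows, and without CNC replicate 1 the same 2, against 7.65%. It stayed at 1 of 8 without SHF replicate 3 (9.86% of rows), CNC replicate 2 (8.32%) or CNC replicate 3 (8.34%). The members were chosen with these levels known, so nothing is read from these counts. *Myl3* passed the filter on low values through the SHF libraries alone. Its exons overlap those of *Pth1r*, the parathyroid hormone receptor on the opposite strand, by up to 95 bases. The library kit does not mark strand, so reads there cannot be assigned to either gene. *Pth1r* had 12.03, 0 and 45.7 TPM in the SHF libraries and 0 in all CNC libraries, and its part in the *Myl3* values was not tested. In SHF replicate 2, where *Pth1r* was listed at 0, *Myl3* was at 6.54 TPM.

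*Myl4*, the essential light chain of the atria and the embryonic heart, behaved differently. Its levels were 3.24, 11.7 and 18.5 TPM for SHF replicates 1, 2 and 3 and 26.1, 7.11 and 5.81 TPM for CNC replicates 1, 2 and 3, which made it the only member above 0 in all 6 libraries. Its mean was 11.2 ± 7.66 TPM (SD, n = 3) in SHF and 13.0 ± 11.3 TPM (SD, n = 3) in CNC, and the lineages overlapped throughout. The regulatory light chains showed nothing at all, since *Myl2*, the ventricular form, and *Myl7*, the atrial form, were listed at 0 in all 6 libraries. In the SHF libraries the ratio of *Myl3* to *Myl4* was 13.8 in replicate 1, 0.558 in replicate 2 and 1.88 in replicate 3.

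The heavy chains were seen in 2 libraries, both of the SHF lineage. *Myh6*, the alpha heavy chain that dominates in the adult mouse heart, reached 24.2 TPM in replicate 1 and 26.7 TPM in replicate 3 of this lineage. *Myh7*, the beta heavy chain of the fetal ventricle, was at 1.99 and 1.34 TPM in the same libraries. Both genes were listed at 0 in SHF replicate 2 and in every CNC library. *Myh6* was thus 12.2 and 19.9 times as high as *Myh7* in the libraries that held them. The genes lie side by side on chromosome 14 (54941921 to 54966927 and 54970684 to 54994626 in GRCm38), and their coding sequences were 91.8% identical over 5799 aligned bases, with an identical run of 245 bases. Reads from such stretches cannot be placed with certainty, so the low *Myh7* values are uncertain. Exons of both genes also overlap antisense genes, by up to 114 bases for *Myh6* (*Gm49130*) and up to 189 bases for *Myh7* (*Mhrt*), and reads there cannot be told apart by strand.

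The actin member followed the heavy chains. *Actc1*, the main actin of the heart, had 42.1 TPM in SHF replicate 1, 28.2 TPM in SHF replicate 3 and 0 in the other 4 libraries. Its coding sequence was 86.3% identical to *Acta1*, the skeletal actin, and 82.6% identical to the smooth muscle actin *Acta2*, with identical runs of at most 32 bases to any of the 3 actins compared, *Actb* included. *Acta1* was above 0 in CNC replicate 2 alone, at 2.10 TPM. *Actc1*, *Myh6* and *Myh7* therefore shared the pattern of being above 0 in SHF replicates 1 and 3 only, which 126 rows of the matrix had, 0.889% of the 14179 rows above 0 in some library.

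Of the troponins, *Tnnc1* and *Tnnt2* had the highest mean levels of all members, and *Tnni3* a lower one than *Myl3*, *Myl4*, *Actc1* and *Myh6*. *Tnnc1*, the calcium-binding troponin C of heart and slow muscle, had 102 and 111 TPM in SHF replicates 1 and 3 and 43.6 TPM in CNC replicate 1. The other 3 libraries listed it at 0, so the lineages overlapped. *Tnnt2*, the cardiac troponin T that anchors the complex to tropomyosin, had 21.5, 87.4 and 60.9 TPM in the SHF replicates. In CNC it had 22.1 TPM in replicate 1 and 0 in replicates 2 and 3, so that a single CNC library, just above the lowest SHF library, made the lineages overlap. *Tnni3*, the inhibitory subunit of the adult heart, had 13.3 TPM in SHF replicate 1, 15.6 TPM in CNC replicate 1 and 0 in the other 4. An exon of *Tnni3* overlaps *Dnaaf3* on the same strand by 86 bases, and *Dnaaf3* was at 2.75 TPM or less in every library.

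The 3 troponin subunits occur in equal numbers in the protein complex, but their transcripts were uneven. All 3 were above 0 together in SHF replicate 1 and CNC replicate 1 only. In SHF replicate 3 *Tnnc1* and *Tnnt2* were present without *Tnni3*, and in SHF replicate 2 *Tnnt2* was the only troponin member above 0. The ratio of *Tnnc1* to *Tnnt2* was 4.74 in SHF replicate 1, 1.81 in SHF replicate 3 and 1.98 in CNC replicate 1.

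**Figure D1:**
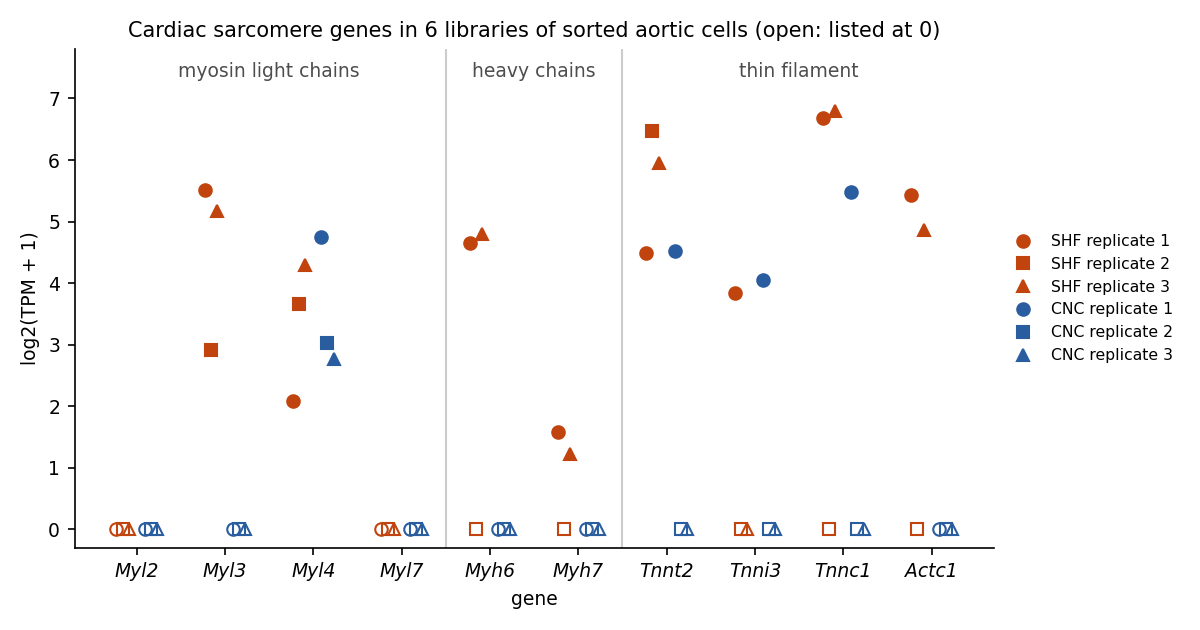
Level of each cardiac sarcomere gene, as log2(TPM + 1), in each of the 3 SHF (orange) and 3 CNC (blue) libraries, with marker shape for the replicate and open markers for values listed at 0. *Myl3* is above 0 in the SHF libraries only, *Myh6*, *Myh7* and *Actc1* in SHF replicates 1 and 3 only, and *Myl2* and *Myl7* in none.

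Of the 8 members above 0 in some library, 4 (*Myl3*, *Myh6*, *Myh7* and *Actc1*) were above 0 in at least 2 SHF libraries and listed at 0 in every CNC library, and 0 had the opposite pattern. Over the 14179 rows above 0 in some library, 2.17% had the first pattern and 2.07% the opposite. Since the members were chosen with these levels known, nothing further is read from the count. The count fell to 1 gene, *Myl3*, without SHF replicate 1 (0.698% of rows) or without SHF replicate 3 (1.06% of rows). With an SHF library left out the rule asks for all that remain, so genes above 0 in SHF replicates 1 and 3 only had to drop out. The count rose to 6 genes without CNC replicate 1 (3.07% of rows), when *Tnnt2* and *Tnnc1* joined and fewer values of 0 were asked for. By the median of the 3 SHF libraries the order was *Tnnc1* (102 TPM), *Tnnt2* (60.9 TPM), *Myl3* (34.9 TPM), *Actc1* (28.2 TPM), *Myh6* (24.2 TPM), *Myl4* (11.7 TPM) and *Myh7* (1.34 TPM), with *Tnni3*, *Myl2* and *Myl7* at 0. Among neighbours in this order, the ranges of *Myl4* and *Myh7* did not overlap, and those of the other pairs did. In CNC the median was above 0 for *Myl4* only, at 7.11 TPM.

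The summed level of the 10 genes came to 253, 106 and 281 TPM for SHF replicates 1, 2 and 3 and to 107, 7.11 and 5.81 TPM for CNC replicates 1, 2 and 3. CNC replicate 1 was thus slightly above SHF replicate 2, and the other CNC libraries, in which *Myl4* was the only member above 0, were far below all others. The ratio of the lineage means was 5.32, and 33.0 without CNC replicate 1. The thin filament genes gave most of each larger sum, with 179, 87.4 and 200 TPM in SHF and 81.3 TPM in CNC replicate 1. The number of members above 0 was 8, 3 and 7 in the SHF libraries and 4, 1 and 1 in the CNC libraries. The number of all genes above 0 was 11858, 9255 and 10126 in SHF, in the same order as the members, and 9653, 10698 and 11334 in CNC, where CNC replicate 1 had the fewest genes and the most members. The part of detection in the members' counts was not tested.

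**Figure D2:**
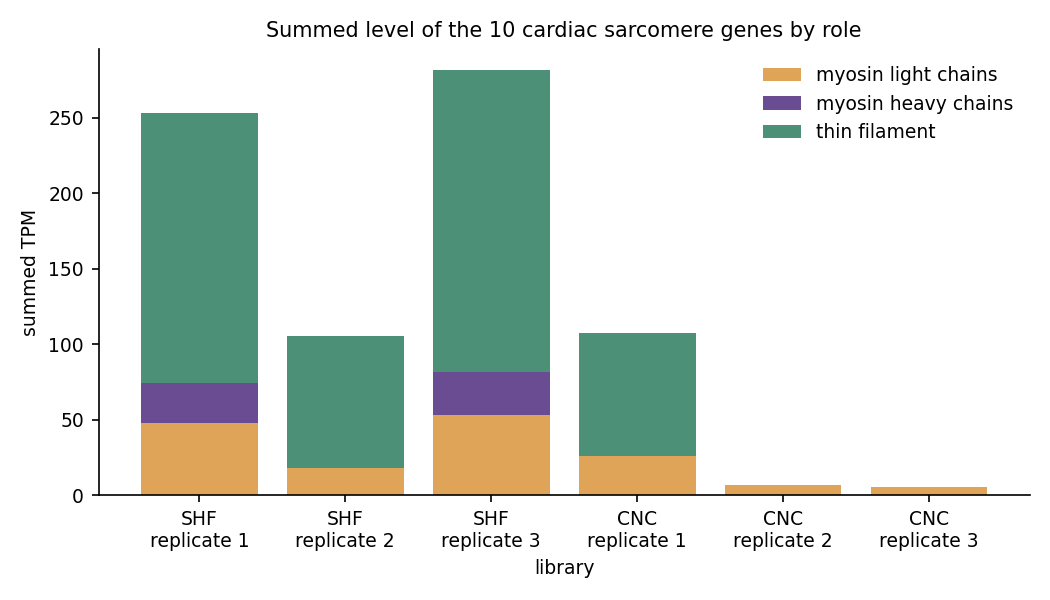
Summed TPM of the 10 cardiac sarcomere genes in each library, stacked by role. SHF replicates 1 and 3 reach 253 and 281 TPM, SHF replicate 2 and CNC replicate 1 reach 106 and 107 TPM, and CNC replicates 2 and 3 stay at 7.11 and 5.81 TPM.

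The most abundant contractile genes of smooth muscle and of other cells were far above the members, and some less abundant ones were not. *Acta2* had 956, 363 and 716 TPM in SHF and 418, 766 and 559 TPM in CNC, and was 22.7 and 25.4 times as high as *Actc1* in SHF replicates 1 and 3. The smooth muscle heavy chain *Myh11* was 5.16 and 4.37 times as high as *Myh6* in those libraries, but in SHF replicate 2 *Myh11*, at 17.4 TPM, was below *Tnnt2*, at 87.4 TPM. The ubiquitous essential light chain *Myl6* was at 2561, 2022 and 1595 TPM in SHF and at 1866, 2197 and 2571 TPM in CNC, at least 45.7 times as high as *Myl3*. The regulatory light chain *Myl9* of smooth muscle was at 987, 574 and 523 TPM in SHF and at 466, 755 and 552 TPM in CNC, where *Myl2* and *Myl7* were listed at 0. All 10 members together made up at most 0.0281% of a library's TPM.

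Within the protein families, the cardiac genes took unequal shares. *Myh6* and *Myh7* held 8.79% and 11.4% of the TPM of 12 myosin heavy chain genes in SHF replicates 1 and 3. *Actc1* held 4.11% and 3.67% of the 4 muscle actins there. *Myl3* and *Myl4* held from 0.894% to 3.24% of the 5 essential light chains in the SHF libraries and from 0.226% to 1.38% in the CNC libraries. The regulatory light chain members held 0% in every library. Of these 5 families, the cardiac genes led among the troponins only. *Tnnc1*, *Tnni3* and *Tnnt2* held 79.7%, 59.3% and 85.4% of the TPM of 8 troponin genes in the SHF libraries and 93.7% in CNC replicate 1. In CNC replicates 2 and 3 the share was 0, and the troponin genes together were at 5.48 and 7.47 TPM.

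**Figure D3:**
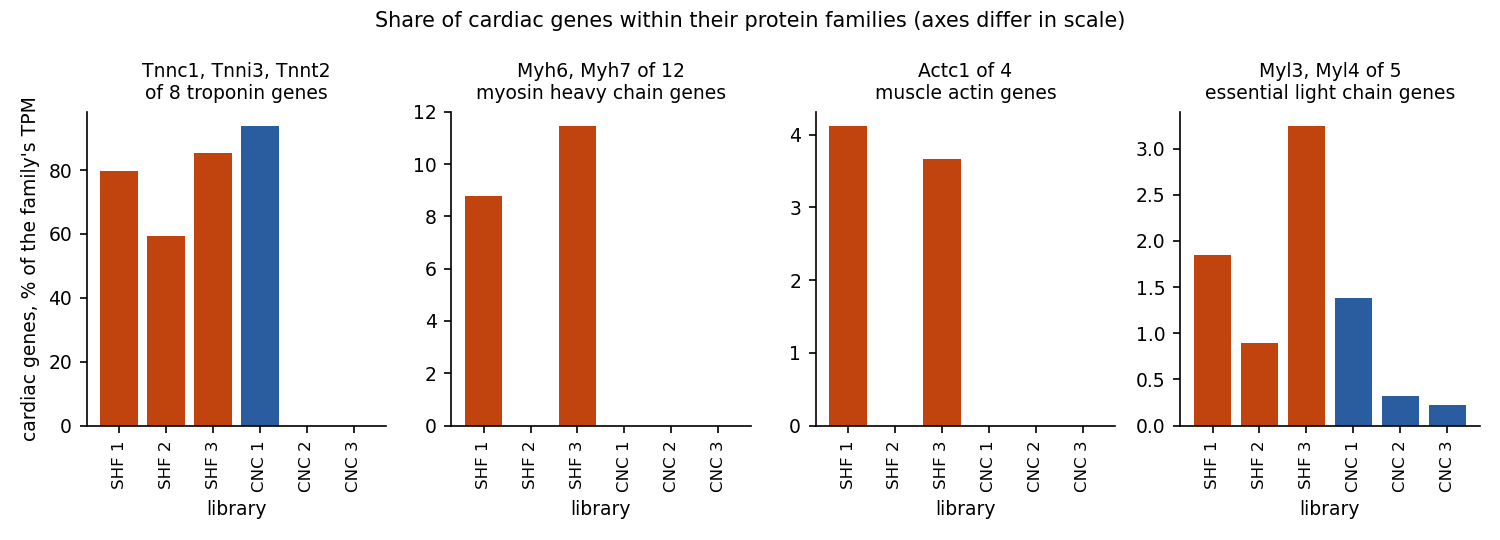
Percent of a protein family's TPM held by the cardiac members, in each SHF (orange) and CNC (blue) library, with a separate scale for each family. The cardiac troponins reach 93.7% of the troponin TPM, while *Actc1* stays at or below 4.11% of the muscle actins and *Myl3* with *Myl4* at or below 3.24% of the essential light chains.

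The other genes of the sarcomere and of heart muscle were taken from gene lists and compared between the lineages with limma on log2(TPM + 1), SHF minus CNC, with Benjamini-Hochberg adjustment over all 10185 genes. No gene passed an adjusted p of 0.05, neither in SHF (0 genes, 0.0%) nor in CNC (0 genes, 0.0%), while an unadjusted p under 0.05 was found for 274 genes higher in SHF (2.69%) and 323 higher in CNC (3.17%). Differences are on the log2(TPM + 1) scale, which understates changes of low genes. Over all genes tested the median difference was 0.02.

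Of 26 other sarcomere and Z-disc genes, 8 were tested, 0 were called in either direction, and the median difference was 1.11, with 7 above 0 and 1 below. *Tpm1*, the tropomyosin that muscle and smooth muscle share, was at 620, 810 and 524 TPM in SHF and at 284, 372 and 387 TPM in CNC. Every SHF library was above every CNC library, as in 6.11% of genes tested, but the difference of 0.89 ± 0.29 (SE) had an adjusted p of 0.688 in limma. *Tcap*, the telethonin that caps titin at the Z-disc, had 0, 102 and 152 TPM in SHF and 70.9, 0 and 9.06 TPM in CNC (difference 1.48 ± 2.01, adjusted p 0.921, limma). *Tmod1*, which caps thin filaments, was at 29.4, 67.4 and 35.5 TPM in SHF and 36.3, 14.9 and 4.01 TPM in CNC (1.56 ± 0.93, adjusted p 0.874, limma). *Pdlim5*, a Z-disc adaptor, was at 56.1, 67.7 and 67.9 TPM against 36.1, 68.8 and 33.5 TPM (0.53 ± 0.55, adjusted p 0.904, limma). The lineages overlapped for these 3 genes. *Csrp3*, a muscle LIM protein, was above 0 in SHF replicate 2 alone, at 52.4 TPM.

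Some other cardiomyocyte genes were low throughout. Titin (*Ttn*), the spring of the sarcomere, was at 0.73 TPM or less in every library, and the calcium release channel *Ryr2* likewise. *Mybpc3*, the cardiac myosin-binding protein C, was above 0 in SHF replicate 1 alone, at 6.02 TPM. Of the 26 genes, 8 were listed at 0 in all libraries, *Nebl*, *Lmod2* and *Mypn* among them. The genes *Ttn*, *Ryr2* and *Mybpc3* are named here after their values were seen. With *Pln*, *Nppa* and *Actn2*, the Z-disc actinin, they form a marker list of 6 cardiomyocyte genes outside the members, which summed to 29.2, 38.9 and 28.6 TPM in SHF and 54.4, 1.46 and 6.15 TPM in CNC. *Actn2* gave all of the sum in SHF replicate 2, and *Pln* nearly all of it in CNC replicate 1.

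Of 10 genes of cardiac calcium handling, 3 were tested and 0 were called, with a median difference of 0.54. Phospholamban (*Pln*), the brake on the calcium pump, had 14.8, 0 and 28.5 TPM in SHF and 54.2, 0 and 0 TPM in CNC, above 0 in the libraries that held *Tnnc1*. The pump itself, *Atp2a2*, was at 24.7, 7.28 and 46.0 TPM in SHF and 46.0, 8.24 and 15.1 TPM in CNC. The exchanger *Slc8a1* was at 6.81, 0.38 and 14.3 TPM against 1.86, 4.06 and 2.70 TPM. Their differences were 1.02 ± 1.86, 0.17 ± 1.03 and 0.54 ± 1.27, with adjusted p-values of 0.941, 0.989 and 0.954 in limma. Without CNC replicate 1 the *Pln* difference was 2.95, and without CNC replicate 2 it was 0.060. The 10 genes summed to 71.8, 75.9 and 113 TPM in SHF and 102, 13.9 and 19.9 TPM in CNC. Calsequestrin 2 (*Casq2*) had 54.8 and 18.9 TPM in SHF replicates 2 and 3 only, and sarcolipin (*Sln*), an atrial regulator of the pump, at 20.8 TPM in SHF replicate 1 only.

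Of 10 cardiac hormone, oxygen and energy genes, which summed to 20.4, 86.8 and 188 TPM in SHF and 28.1, 0.61 and 27.5 TPM in CNC, 1 was tested. This was *Fabp3*, the heart-type fatty acid binding protein, at 17.3, 84.9 and 70.8 TPM in SHF and at 0, 0.48 and 0 TPM in CNC. *Fabp3* passed the filter through the SHF libraries alone. Its libraries did not overlap, as in 6.11% of genes tested, and the difference of 5.41 ± 1.24 had an adjusted p of 0.475 in limma. The natriuretic peptide *Nppa* was at 2.58 TPM in SHF replicate 1 and listed at 0 elsewhere. Muscle creatine kinase *Ckm* was at 21.5 TPM in SHF replicate 3 only, the cytochrome oxidase subunit *Cox8b* had 76.9 TPM in SHF replicate 3, 28.1 TPM in CNC replicate 1 and 0 elsewhere, and the muscle enolase *Eno3* had 0, 0 and 18.5 TPM in SHF against 0, 0.13 and 27.5 TPM in CNC.

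Among 13 cardiac transcription factors, 8 were tested and 0 were called, with a median difference of 0.67. *Gata4* was at 51.5, 61.9 and 37.7 TPM in SHF and 17.2, 4.16 and 0 TPM in CNC (3.47 ± 1.21, adjusted p 0.694, limma), and *Tbx20* at 38.3, 100.0 and 40.0 TPM against 7.60, 4.55 and 8.35 TPM (2.84 ± 0.88, adjusted p 0.629, limma). The lineages did not overlap for these 2 of the 8 genes, beside 6.11% of all genes tested with every SHF library higher. *Mef2a*, *Mef2c* and *Gata6* overlapped, with differences of 0.55 ± 0.82, 0.79 ± 1.30 and -0.15 ± 1.64.

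Skeletal and fetal paralogues summed to 34.8, 60.0 and 29.8 TPM in SHF and 6.32, 7.58 and 17.2 TPM in CNC, less than the cardiac members in 4 libraries and more in CNC replicates 2 and 3. Of 14, 8 were listed at 0 in all libraries, all 5 of the fast and developmental heavy chains *Myh1*, *Myh2*, *Myh3*, *Myh4* and *Myh8* among them, and 1 was tested. This was *Tnnt3*, the fast skeletal troponin T, at 16.4, 0 and 29.4 TPM in SHF and 5.51, 5.48 and 0.89 TPM in CNC (0.91 ± 1.52, adjusted p 0.935, limma). *Tnni2* was above 0 in SHF replicate 2 only, at 60.0 TPM, *Tnnt1* had 18.3 TPM in SHF replicate 1, 6.58 TPM in CNC replicate 3 and 0 elsewhere, and *Mylpf* had 0.81 and 9.74 TPM in CNC replicates 1 and 3. All 14 smooth muscle and cytoplasmic paralogues were tested, with 0 called and a median difference of 0.18. *Actb* was at 7903, 8223 and 7183 TPM in SHF and 6042, 5903 and 6165 TPM in CNC, and *Actg1* at 5337, 4137 and 4828 TPM against 3973, 4042 and 3957 TPM. Without overlap, 3 of the 14 were higher in SHF (*Actb*, *Actg1* and *Myh10*), beside 6.11% of genes tested, and 1 was higher in CNC (*Actg2*), beside 5.68%. For *Actb* and *Actg1* the differences were 0.36 ± 0.19 and 0.25 ± 0.20, with adjusted p-values of 0.874 and 0.890 in limma.

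**Figure D4:**
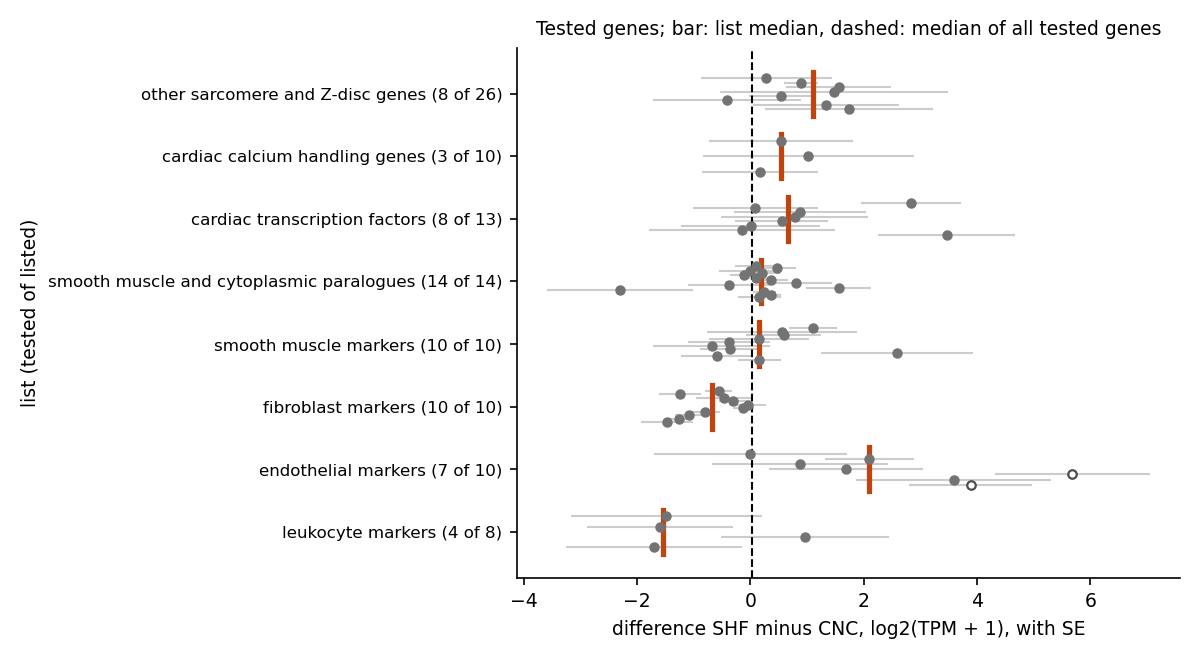
Difference SHF minus CNC on the log2(TPM + 1) scale, with its SE, for each tested gene of the lists with at least 3 tested genes, the list medians as bars and the median of all tested genes as a dashed line. Open points are genes listed at 0 in every library of one lineage. The medians run from -1.54 for leukocyte markers to 2.10 for endothelial markers, and that of the other sarcomere genes is 1.11.

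Markers of other cells in the sort were summed in each library beside the members. The sum of 10 fibroblast markers was 29221 to 32484 TPM in SHF and 40269 to 54798 TPM in CNC. That of 10 smooth muscle markers was 953 to 2188 TPM in SHF and 905 to 1328 TPM in CNC. The fibroblast list thus had the larger sum in every library, but the sums do not give shares of cells. The study describes the sorted cells as smooth muscle cells of the aorta. The matrix gene decorin (*Dcn*) alone ran from 11604 to 14863 TPM over the 6 libraries, and the smooth muscle gene *Tagln* from 139 to 673 TPM. In limma 0 genes were called in any marker list, with a median difference of -0.68 over the 10 fibroblast markers tested (all 10 below 0), 0.15 over 10 for smooth muscle, 2.10 over 7 for endothelium and -1.54 over 4 for leukocytes, while 2 Schwann cell and 0 erythroid markers were tested. For endothelium 6 of the 7 differences were above 0 and 1 was below. *Cdh5* and *Emcn* among them passed the filter on low values through the SHF libraries alone. The 10 endothelial markers summed to 89.5, 591 and 525 TPM in SHF and to 60.8, 61.0 and 37.7 TPM in CNC. Like *Myl3*, these sums were higher in every SHF library. Within SHF they had the same order as *Tnnt2*, highest in replicate 2 and lowest in replicate 1, whereas the summed members were lowest in replicate 2. *Emcn* and *Pecam1*, the most abundant of them, were at 11.6 and 31.5, 220 and 148, and 47.6 and 142 TPM in SHF replicates 1, 2 and 3, with *Emcn* listed at 0 in CNC and *Pecam1* between 9.72 and 37.9 TPM. Leukocyte markers (8 genes) ran from 0 to 33.3 TPM in SHF and from 7.96 to 133 TPM in CNC, with *Ptprc* listed at 0 throughout. Schwann cell markers (6 genes) ran from 1.5 to 15.3 TPM and from 21.4 to 94.4 TPM. Erythroid markers (4 genes) reached 353 TPM in SHF replicate 1 and 48.7 TPM in CNC replicate 2 and were at or below 0.60 TPM elsewhere. *Xist*, expressed from the inactive X chromosome of females, was above 0 in SHF replicates 2 and 3 only, and the Y-linked *Ddx3y* in the other 4 libraries only. By these genes the libraries differed in sex, and female libraries were in SHF only. Sex and lineage therefore cannot be fully told apart in the SHF minus CNC differences. The part of sex and of the other cells' markers in the cardiac values was not tested.

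**Figure D5:**
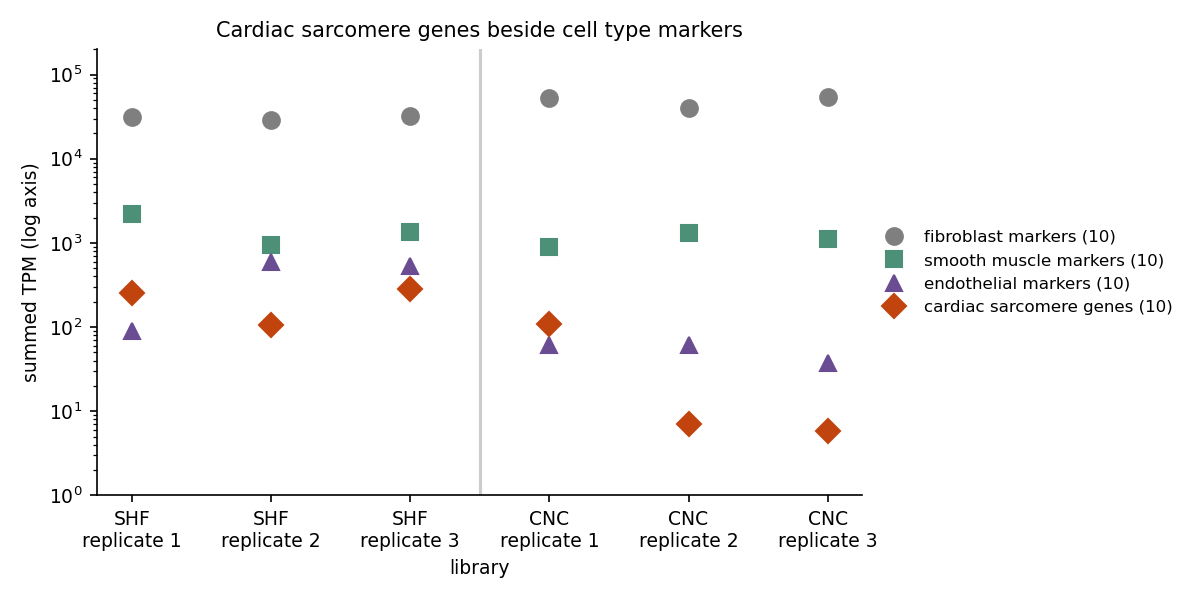
Summed TPM, on a log axis, of the 10 cardiac sarcomere genes and of 10 fibroblast, 10 smooth muscle and 10 endothelial markers in each library. The cardiac sums lie below the smooth muscle sums in all 6 libraries, and drop from 107 TPM in CNC replicate 1 to 7.11 and 5.81 TPM in CNC replicates 2 and 3.

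Values of 0 need care in these libraries. A 0 in some library was found for 27.4% of the 7444 genes whose mean reached 10 TPM and for 0.657% of the 1523 genes whose mean reached 100 TPM. The mean over the 6 libraries was under 100 TPM for all members. TPM keep no record of depth, so no detection limit can be given for *Myl2*, *Myl7* or the CNC libraries, and for 3 libraries against 3 no exact permutation test, two-sided, can give a p below 0.1.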

How the data were processed

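Bulk RNA sequencing of sorted GFP+ cells gave 6 libraries, 3 SHF and 3 CNC. The authors amplified the RNA by SmartSeq2, used RSEM 1.2.25 with bowtie2 as aligner against mm10, and deposited gene-level TPM values. The gene annotation is not given in the sources used here. TPM keep no read counts, so depth is unknown and no counting intervals are given.

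The members and gene lists were chosen with earlier results of these data known. The genes named are the members, the 5 most abundant genes of each pathway or paralogue list, the 2 most abundant of each marker list and the 5 whose profiles were most like the summed members. *Ttn*, *Ryr2*, *Mybpc3*, *Actn2*, *Myh10*, *Myh11*, *Actg2*, *Cdh5* and *Ptprc* were added after their values were seen. So were the sex-linked genes, genes named as listed at 0 throughout and genes that overlap members.

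Differences in log2(TPM + 1) were fitted in limma 3.58.1 under R 4.3.3, with trended eBayes variances, over the 10185 genes that reached 1 TPM in 3 or more libraries, with Benjamini-Hochberg adjustment. The fit was tested on simulated data. Alternatives were pseudocounts of 0.1 and 5, no filter, scaling by median of ratios, quantile normalization, no trend, a replicate block and each library left out. Positions and coding sequences come from GENCODE M21 (GRCm38), promoter windows from RefSeq (GRCm38.p6), and the longest coding sequence per gene was aligned with Biopython 1.88.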

Additional observations from a re-analysis of the deposited data

How the results depend on the processing

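Of 159 recomputed summaries, 151 stayed within the spread between libraries or within 1.5 times of a count. With a pseudocount of 5, 1 gene was called higher in CNC in place of 0, and with a pseudocount of 0.1 the endothelial median was 3.76. With no filter the median fell to 0.52 over 18 other sarcomere genes and to 0.37 over 11 transcription factors. It rose to 0.78 over 8 calcium handling genes and to 2.64 over 10 endothelial markers. The log2 ratio of the summed members ran from 1.90 to 5.05 across the values that each left out a library, highest without CNC replicate 1. The members without overlap numbered 1 to 5. Members above 0 in at least 2 SHF libraries and at 0 in CNC numbered 1 to 6, a set of alternatives chosen after seeing the data. With libraries left out, the median ran from 0.47 (without SHF replicate 2) to 1.17 for the other sarcomere genes, from 0.15 (without CNC replicate 1) to 1.09 for the transcription factors, from -2.80 (without CNC replicate 1) to -0.09 (without CNC replicate 2) for leukocyte markers, from -0.20 (without SHF replicate 3) to 1.54 for calcium handling, from -0.01 (without SHF replicate 1) to 0.33 for smooth muscle and cytoplasmic paralogues and from -0.14 (without CNC replicate 1) to 0.54 for smooth muscle markers.

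Of 364 recomputed values of 28 single genes outside the members, 344 kept their direction and all stayed short of the threshold. The direction turned for *Dcn* under quantile normalization (0.04) and for *Gata6* under quantile normalization (0.12) and a pseudocount of 0.1 (0.12). Leaving out a library turned *Acta2* (-0.14 to 0.55), *Atp2a2* (-0.39 to 0.86), *Gata6* (-1.62 to 1.11), *Lyz2* (-2.88 to 0.068), *Mef2a* (-0.051 to 1.19), *Mef2c* (-0.12 to 1.25), *Myl6* (-0.29 to 0.054), *Myl9* (-0.080 to 0.39), *S100b* (-1.05 to 0.44), *Slc8a1* (-0.20 to 1.54), *Tcap* (-0.10 to 3.80) and *Tnnt3* (-0.044 to 2.42). Without a change of direction, leaving out a library moved by over 1.5 times the differences of *Pln* (0.060 to 2.95), *Tmod1* (0.80 without CNC replicate 3), *Pdlim5* (0.35 to 0.85), *Actg1* (0.16 to 0.35), *Tagln* (0.73 to 1.52), *Cd14* (-3.07 to -0.26) and *Dcn* (-0.20 to -0.051). The cause was not tested. Replicate numbers are shared between lineages but did not pair the libraries, with correlations of -0.011, -0.004 and -0.011 between the deviations of same-numbered libraries. With the replicate block 0 genes were called in each direction and no other call changed.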

Other observations

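The 5 genes outside the members whose levels over the 6 libraries were most like the summed cardiac sarcomere level were *Jazf1*, *Tlr2*, *Pqlc1*, *Icam2* and *Iqck*. Their Pearson's r ran from 0.959 to 0.986 on the log2 scale. The search covered the 7361 genes outside the members that passed the filter on low values and whose mean reached 10 TPM. None of the 5 is a sarcomere gene. *Jazf1*, a nuclear cofactor, was at 22.5, 9.49 and 28.3 TPM in SHF and 18.7, 0.63 and 0 TPM in CNC, and *Tlr2*, a receptor for bacterial lipoproteins, at 47.3, 48.9 and 68.6 TPM in SHF and 29.2, 5.49 and 5.53 TPM in CNC. *Icam2*, an adhesion molecule of endothelial cells and leukocytes, was at 45.1, 7.51 and 56.4 TPM and at 33.1, 0 and 0 TPM. Like *Tnnt2* and *Tnnc1*, which are part of the sum, all 5 were higher in CNC replicate 1 than in CNC replicates 2 and 3. They were picked for likeness to that sum, so this is no separate finding. Of the genes searched, 43 had an r of at least 0.9. The genes were searched for this likeness over the same 6 libraries, and nothing was tested.

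The pattern of *Myl4*, above 0 in all 6 libraries, was shared by 6378 rows, and those of the troponins by fewer. *Tnnc1* was above 0 in SHF replicates 1 and 3 and CNC replicate 1 only, as were 45 rows (0.317% of those above 0 in some library), *Pln* among them. *Tnnt2* was above 0 in the 3 SHF libraries and CNC replicate 1 only, as were 36 rows (0.254%), and *Tnni3* in SHF replicate 1 and CNC replicate 1 only, as were 97 rows (0.684%).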
